A study of Mus musculus with 4 samples.

Results

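Oxidative phosphorylation genes were followed through the cells of small intestinal adenomas. Members were chosen by gene symbol alone: every symbol beginning with mt-, Uqcr, Cox4 to Cox8 or Atp5, Nduf followed by a, b, c, s or v and a digit, and Sdha, Sdhb, Sdhc and Sdhd. This rule took 97 of the 27514 genes listed in the gene tables of all 4 libraries, namely 84 nuclear genes and the 13 protein-coding genes of the mitochondrial genome. Of the nuclear genes, 37 belonged to complex I, 4 to complex II, 8 to complex III, 18 to complex IV and 17 to complex V. Subunits with other names, among them Cyc1 and Ndufab1, fell outside the rule and were kept in a separate list. The tumors came from 11-week-old mice on a C57BL/6 background. Animals of both groups carried the ApcMin allele, a truncating germ-line mutation of the Wnt pathway repressor Apc, over a wild-type copy. The group ApcMin (ApcMin/+;Lef1 +/+) had intact Lef1, and the group VApcMinL (ApcMin/+;Lef1 fl/fl; Villin-Cre) lost Lef1 through a Cre driven by the Villin promoter, active throughout the intestinal epithelium but not in immune or stromal cells. Each group had 2 libraries, 1 per version of the 10x 3′ kit (replicate 1, kit version 2; replicate 2, kit version 3), and each library pooled several tumors of similar size and position, so animals were not resolved.

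Oxidative phosphorylation takes electrons from NADH at complex I and from succinate at complex II, passes them through ubiquinone, complex III, cytochrome c and complex IV to oxygen, and uses the resulting proton gradient to make ATP at complex V. Most subunits are encoded in the nucleus and imported, whereas a small set of core subunits of complexes I, III, IV and V is encoded by mitochondrial DNA, and complex II is nuclear throughout. In the intestinal epithelium, enterocytes are known for a high demand for ATP in nutrient uptake, and dividing crypt cells are known to use both mitochondrial and glycolytic metabolism.

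The libraries held 44660305, 49009488, 98714025 and 128247396 unique molecular identifiers (UMIs, each a counted RNA molecule) in the order of the kit 2 pair (ApcMin, then VApcMinL) and the kit 3 pair (ApcMin, then VApcMinL), and values below follow this order throughout. Lef1, the deleted gene, stood at 0.100, 0.296, 0.376 and 0.235 UMIs per 10000 UMIs of adenoma cells. It was thus lower in VApcMinL than in ApcMin among the kit 3 libraries but higher in the kit 2 library labelled VApcMinL, which goes against that label, and the deposited counts do not show whether RNA from outside the deleted part was counted. Although all libraries were labelled male, Xist stood at 0, 11.9, 0.000784 and 3.25 UMIs per 10000. Of barcodes with at least 2000 UMIs, 20.4%, 21.4%, 61.6% and 26.6% exceeded the limit of 20% mitochondrial UMIs and were left out, so mitochondrial shares are capped by this filter, most of all in ApcMin replicate 2. The kit 2 libraries shared 6 barcodes, and no other pair shared any.

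Cells were placed in classes by marker genes, none of them a member of the set. Of the cells kept, 3298 were adenoma cells (Wnt target genes such as Notum, Nkd1 and Wif1), 1180 crypt cells, 2708 enterocytes, 599 secretory cells (goblet, Paneth, enteroendocrine and tuft) and 1253 immune cells, with 360 stromal cells kept aside. Crypt markers had to sum to at least 10 UMIs per 10000 in the crypt class and to under 10 in adenoma cells, which sets part of any gap in them. The crypt class was carried by Dmbt1, at 19.7, 19.1, 20.7 and 21.1 UMIs per 10000 against at most 0.329 in adenoma cells. Its stem cell markers went against the name: Lgr5 was at 0.0931, 0.0507, 0.107 and 0.175 in the crypt class and higher, at 0.133, 0.701, 0.802 and 0.299, in adenoma cells, and Olfm4 was near 0 in the kit 2 libraries (0.0999 and 0.0254) but at 5.30 and 7.29 in the kit 3 libraries. The 12 enterocyte markers summed to 21.1, 31.1, 25.6 and 21.6 in this class, against 6.21, 11.1, 7.86 and 4.38 in adenoma cells and 601, 707, 735 and 650 in enterocytes. It is therefore called Dmbt1-gated below, and the part of those enterocyte markers in any difference between the classes was not tested. The 20 immune markers summed to 5.97, 1.92, 0.467 and 0.227 in adenoma cells and to 5.64, 1.83, 0.252 and 0.208 in Dmbt1-gated cells, near level between the classes within each library.

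Nuclear members took a smaller share of the RNA of adenoma cells than of Dmbt1-gated cells in every library. Their summed share of all UMIs was 3.99%, 4.02%, 3.30% and 3.26% in adenoma cells and 5.88%, 6.31%, 5.42% and 4.78% in Dmbt1-gated cells. Enterocytes had 5.79%, 5.43%, 4.85% and 4.54%, secretory cells 4.14%, 3.94%, 2.72% and 3.13%, and immune cells 2.70%, 2.78%, 2.22% and 2.30%. All 4 adenoma values lay below all 4 Dmbt1-gated values, and immune cells lay below adenoma cells without overlap, whereas enterocytes overlapped Dmbt1-gated cells and secretory cells overlapped adenoma cells. The 13 mitochondrially encoded genes were ordered differently. Their share was 10.8%, 11.5%, 13.1% and 11.4% in enterocytes, against 5.59%, 5.62%, 7.31% and 7.40% in Dmbt1-gated cells and 3.80%, 4.04%, 6.41% and 5.54% in adenoma cells. It was 4.54%, 4.83%, 6.70% and 6.05% in secretory cells and 3.69%, 3.24%, 5.39% and 4.80% in immune cells. Kit 3 libraries had lower nuclear shares than kit 2 libraries in all of these classes and higher mitochondrial shares in all but enterocytes, where VApcMinL replicate 2 lay within the kit 2 range, so the classes were compared within libraries. Barcodes with at most 100 UMIs, which sample free RNA, had nuclear shares of 4.17%, 4.54%, 3.19% and 3.24% and mitochondrial shares of 9.71%, 10.2%, 15.8% and 11.0%.

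**Figure D1:**
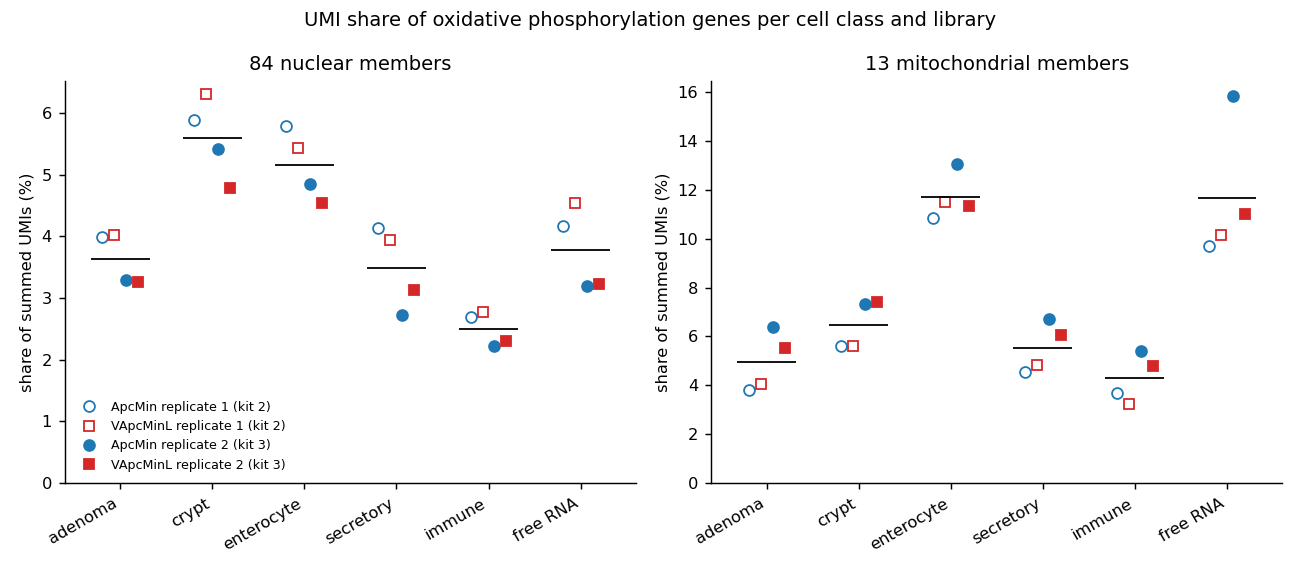
Share of all UMIs (%) taken by the nuclear members and by the 13 mitochondrially encoded genes, by cell class; each point is 1 library (blue circles ApcMin, red squares VApcMinL, open kit 2, filled kit 3), lines mark means over the 4 libraries, crypt stands for the Dmbt1-gated class and free RNA for barcodes with at most 100 UMIs. Adenoma cells (3.26% to 4.02%) lie below Dmbt1-gated crypt cells (4.78% to 6.31%) for the nuclear members, and enterocytes (10.8% to 13.1%) lie above every other cell class for the mitochondrial genes.

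As a mean over libraries, the nuclear share was 3.64% ± 0.420 (SD, n = 4) in adenoma cells, 5.60% ± 0.657 in Dmbt1-gated cells, 5.15% ± 0.564 in enterocytes, 3.48% ± 0.668 in secretory cells and 2.50% ± 0.280 in immune cells. The within-library difference of adenoma from Dmbt1-gated cells was −1.89, −2.30, −2.12 and −1.52 percentage points, lower in 4 of 4 libraries (mean −1.96). An exact two-sided permutation test that flips the sign of each library's difference gave p = 0.13, the smallest that 4 libraries allow, and 0.188 after Benjamini-Hochberg adjustment over 12 comparisons of shares. Every other comparison of shares between classes gave this smallest p as well, among them the nuclear share of secretory against Dmbt1-gated cells (mean difference −2.12 points), of enterocytes against Dmbt1-gated cells (−0.446 points) and of immune against adenoma cells (−1.14 points). The widest was the mitochondrial share of enterocytes against Dmbt1-gated cells (5.21 points, or 1.92 with a mitochondrial limit of 10% and 9.43 with 50%). Since mitochondrial UMIs enter the total, the nuclear share was also taken of non-mitochondrial UMIs, where the adenoma difference was −2.15 points. On this measure the enterocyte difference from Dmbt1-gated cells was 0.267, −0.555, −0.273 and −0.0380 points, higher in 1 library and lower in 3, with an exact permutation p of 0.375.

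Of the members, 79 nuclear and all 13 mitochondrial genes had enough UMIs to be tested across libraries. The 5 left out were Cox4i2, Ndufa4l2, Cox8b, Cox7b2 and Cox8c, which are described with the tissue-type subunits below. UMIs were summed per library and class and fitted with edgeR's quasi-likelihood test with the library as a block, and a gene was called when its adjusted p over all 13279 genes tested was under 0.05. Levels are given as CPM, the UMIs of a gene scaled to a class total of 1000000 UMIs. With 3′ counting a molecule gives 1 count whatever its length, so CPM is a level per molecule. The log2 differences come from the fit, which rescales the class totals by TMM (trimmed mean of M values), and so can differ from the ratio of 2 CPM values. Because the labels do not tie libraries to separate animals, p-values measure the spread between these libraries, part of which may be technical.

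In adenoma cells 74 of the 79 nuclear members were lower than in Dmbt1-gated cells and none was higher, where 22.6% of all genes tested were lower and 26.3% higher (48.9% in either direction). The median log2 difference of the nuclear members was −0.84, against 0.03 over all genes. All 13 mitochondrial genes were lower too, with a median of −0.68. Within single libraries the nuclear median was −0.73, −0.87, −0.97 and −0.73. CPM did not overlap between the classes for 48 of the 79 nuclear members, all of them lower in adenoma cells, where 12.4% of all genes were lower and 26.1% higher without overlap. With total UMIs in place of TMM the median of all genes moved to 0.23 and 81 of the 92 members tested remained lower, none higher.

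Complex II, which oxidises succinate to fumarate and ties the TCA cycle to the respiratory chain, differed most of the complexes, with 4 of 4 members lower at a median of −1.17. Sdhb, its iron-sulfur subunit, stood at 199, 232, 159 and 165 CPM in adenoma cells and at 386, 482, 443 and 365 CPM in Dmbt1-gated cells. The classes did not overlap, and Sdhb differed by −1.35 on the log2 scale (SE 0.18, adjusted p = 3.09e-06). Sdha, the flavoprotein that holds the succinate site, stood at 118, 144, 132 and 138 CPM against 257, 263, 287 and 242 CPM, again without overlap (log2 −1.17, SE 0.10, adjusted p = 1.98e-08). Sdhc and Sdhd, the membrane anchors, were lower by similar amounts (log2 −1.17 and −1.09). As a sum, complex II took 0.0621%, 0.0660%, 0.0587% and 0.0590% of adenoma UMIs and 0.118%, 0.132%, 0.134% and 0.112% of Dmbt1-gated UMIs.

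Complex I, the NADH dehydrogenase, had 33 of its 36 tested nuclear members lower, with a median of −0.73. Ndufa5, an accessory subunit of its matrix arm, stood at 207, 234, 179 and 171 CPM in adenoma cells and at 414, 501, 438 and 329 CPM in Dmbt1-gated cells (log2 −1.28, SE 0.16, adjusted p = 1.36e-06). Ndufa9, which lies near the ubiquinone pocket, and Ndufs7, an iron-sulfur subunit of the electron path, were lower at −1.19 and −1.14. The member of the complex I list with the most UMIs, Ndufa4, was among the least different. It has since been assigned to complex IV, although its symbol keeps the older name. Its levels were 1073, 1283, 1044 and 950.2 CPM against 1402, 1342, 1286 and 1148 CPM, with overlap, and its log2 difference was −0.45 (SE 0.13, adjusted p = 0.00923). Ndufa1, Ndufa6 and Ndufa7 were not called, with log2 differences of −0.35, −0.24 and −0.24.

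In complex III, which moves electrons from ubiquinol to cytochrome c, 8 of 8 members were lower at a median of −0.98. Uqcrc1, a core subunit on the matrix side, stood at 255, 292, 209 and 237 CPM in adenoma cells and at 517, 612, 511 and 465 CPM in Dmbt1-gated cells, a clear gap (log2 −1.28, SE 0.17, adjusted p = 3.02e-06). The member with the most UMIs, the hinge protein gene Uqcrh, was lower by less, at 930, 952, 864 and 862 CPM against 1330.5, 1518, 1339 and 1221 CPM (log2 −0.78, SE 0.12, adjusted p = 2.86e-05). Complex IV, the cytochrome c oxidase that reduces oxygen, had 13 of 14 members lower at a median of −0.86. Cox4i1, the broadly expressed form of subunit 4, stood at 1658, 1539, 1376 and 1506 CPM against 2333, 2460.0, 2191 and 2208 CPM, without overlap (log2 −0.79, SE 0.13, adjusted p = 4.59e-05). Cox7b was lower at −1.25 and Cox6b2 was not called (−0.02). The call of Cox6a2 (−1.69), counted among the 13, rested on 12 UMIs in adenoma and 13 in Dmbt1-gated cells, and the gene passed the count filter only through immune cells. Complex V, the ATP synthase, had 16 of 17 members lower at a median of −0.84. Atp5b, its catalytic beta subunit, stood at 952, 1167, 1125 and 1213 CPM against 1381, 1651, 1846 and 1644 CPM (log2 −0.74, SE 0.15, adjusted p = 0.000454). Atp5o, in the stalk that holds the catalytic head, was lower at −1.22, and Atp5s was not called (−0.08). Among the 3 genes for the proton-carrying c subunit, which encode the same mature protein, Atp5g1 and Atp5g3 were lower at −1.04 and −1.08 and Atp5g2 at −0.35.

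Among the mitochondrial genes, the differences ran from −1.0 for mt-Nd4l to −0.50 for mt-Nd6, both subunits of the membrane arm of complex I. The levels of mt-Nd4l were 99.1, 117, 275 and 217 CPM in adenoma cells and 193, 200.3, 457 and 373 CPM in Dmbt1-gated cells, lower within each library while the kits overlapped (SE 0.12, adjusted p = 1.52e-06). For mt-Co1, the catalytic core of complex IV and the member with among the most UMIs, adenoma cells had 7345, 7608, 11801 and 9667 CPM and Dmbt1-gated cells 10247, 9919, 12653 and 12009.6 CPM (log2 −0.51). CPM was lower without overlap for 2 of the 13 genes, since the kit difference within a class was as wide as the gap between the classes.

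**Figure D2:**
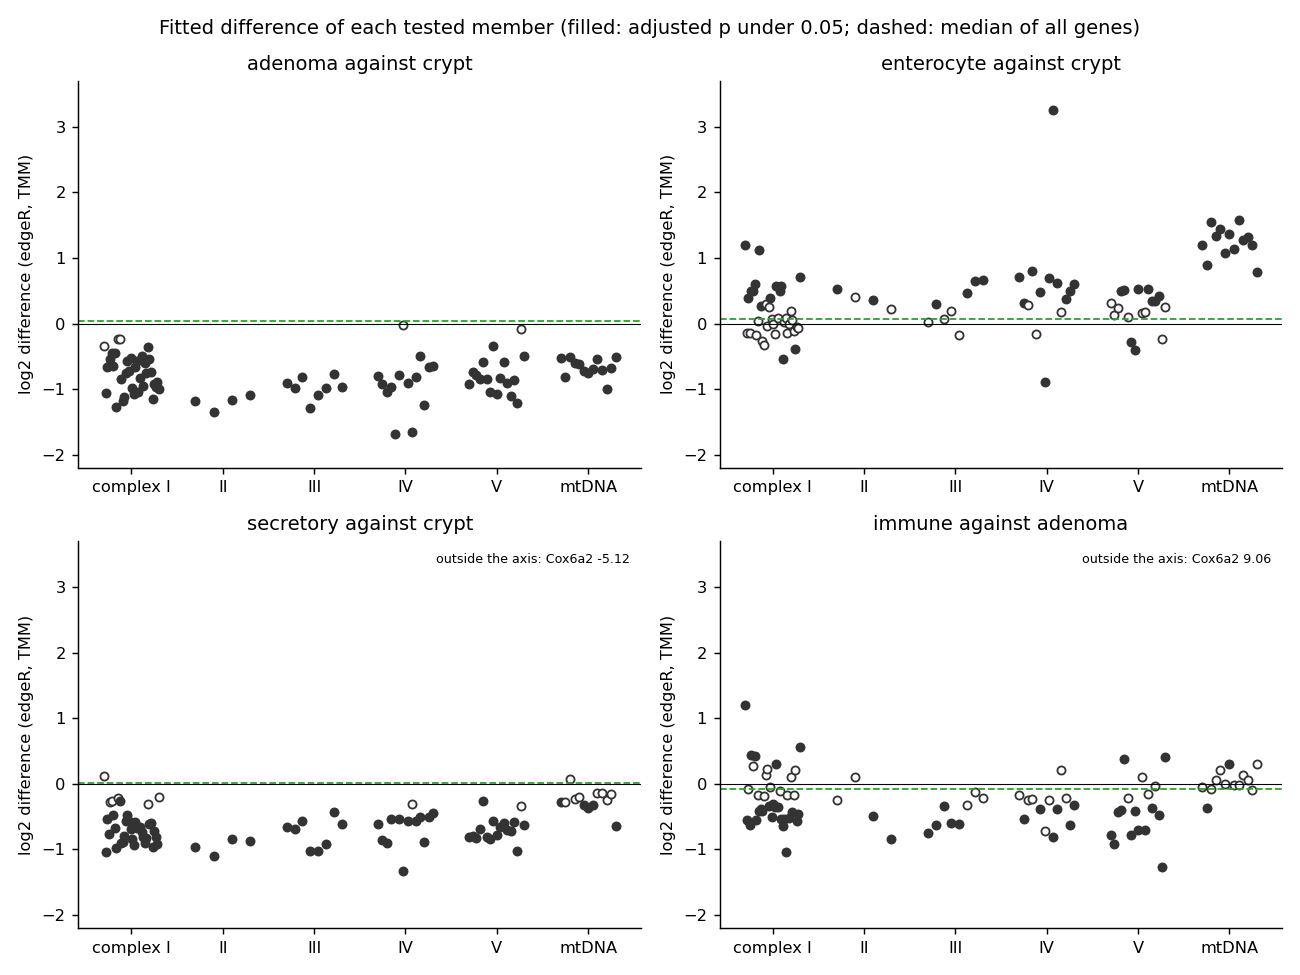
Fitted log2 difference (edgeR, TMM) of every tested member in the class comparisons, by complex for nuclear members and with the mitochondrially encoded genes (mtDNA) apart; filled points had an adjusted p under 0.05, open points did not, the dashed line is the median of all genes and crypt stands for the Dmbt1-gated class. In the adenoma panel every point lies below 0. Cox6a2, which passed the count filter only through immune cells and has few UMIs elsewhere, lies outside the axis at −5.12 in secretory and 9.06 in immune cells. In the enterocyte panel, where 48 members are higher and 5 lower, total UMI scaling in place of TMM gives 17 higher and 38 lower.

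Genes that work beside the respiratory chain were followed in lists drawn up by pathway, to be read against the 22.6% of all genes that were lower and the 26.3% that were higher. All 16 TCA cycle genes were lower in adenoma cells (median −0.80), with Mdh2, the mitochondrial malate dehydrogenase, at −1.50 and Cs, the citrate synthase, at −0.63. Of 13 fatty acid oxidation genes 12 were lower (median −1.15), among them Hadh at −1.15 and Acadm, the medium-chain acyl-CoA dehydrogenase, at −1.29. Of 10 electron carriers and subunits outside the symbol rule 9 were lower (median −0.70), with the cytochrome genes Cyc1 at −1.17 and Cycs at −0.61. Assembly factors were mixed, with 19 lower and 1 higher of 30 (median −0.50), the higher gene being Sdhaf4 at 0.42. Of 19 glycolysis genes 8 were higher and 5 lower (median 0.21), the lower count being near the share over all genes. Slc16a3, a lactate exporter, was higher at 2.79, Hk1 at 1.71 and Pkm, the pyruvate kinase, at 1.22, while Pfkp was lower at −1.56. Among 10 mitochondrial carrier and coupling genes 7 were lower and 2 higher. The adenine nucleotide carrier Slc25a4 was higher at 3.01, whereas Ckmt1, the mitochondrial creatine kinase, was lower at −2.02 and Atpif1, the inhibitor of ATP synthase, at −1.21. Of 20 regulators of mitochondrial gene expression 9 were lower and 1 was higher. Tfam, which packages and transcribes mitochondrial DNA, was at −1.05, Lrpprc, which stabilises mitochondrial mRNA, at −1.25, Esrra, a nuclear receptor for these genes, at −1.28, and the coactivators Ppargc1b and Ppargc1a at −2.74 and 1.50. Of 10 dissociation and stress genes 2 were higher, and the list summed to 32.5, 24.9, 28.4 and 28.4 UMIs per 10000 in adenoma cells and 27.5, 24.4, 13.5 and 21.2 in Dmbt1-gated cells. The part of dissociation stress in the member differences was not tested.

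The promoters of nuclear respiratory genes are known to be bound by NRF1, GABPA, YY1 and estrogen-related receptors, so the 250 bases upstream of the RefSeq start site were read for the 69 of 84 nuclear members found in the RefSeq table (build GRCm38.p6). The NRF1 letters (GCGCA, any base, then GCGC) were present on either strand in 12 members, or 17.4%, against 3.86% of all 27025 genes. CCGGAAG (GABPA) was present in 11 members (15.9%, against 7.05%), TCAAGGTCA (ERR) in 1 (1.45%, against 0.366%) and AAGATGGCG (YY1) in 0 (against 0.607%). Among 13511 other genes of similar GC content the shares were 3.72% for the NRF1 letters and 8.57% for the GABPA letters. The match did not separate members by their adenoma difference, whose median log2 was −0.84 with the NRF1 letters (12 members tested) and −0.81 without (55). A match describes letters and is not evidence of binding, and NRF1 and GABPA matches did not overlap in the sequences printed. Among nuclear members reaching 20 CPM, Cox7a1 had the largest adenoma difference and has no match. Nor have Sdhb, Uqcrc1, Cox7b, Atp5o, Ndufa9 and Ndufs7, which with Sdha and Ndufa5 were among the 10 largest. The sequences shown are thus not typical of the members with the largest adenoma differences. Shown are Sdha, Ndufa5 and Sdhd, the last not among those 10, and Cox6a1 and Cox7a1. The latter 2 were among the highest in enterocytes, and only Cox6a1 of them has a match. The windows are chr13:74350241-74350490 (minus strand) for Sdha, chr9:50603850-50604099 (minus) for Sdhd, chr6:24527527-24527776 (minus) for Ndufa5, chr5:115348959-115349208 (minus) for Cox6a1 and chr7:30183921-30184170 (plus) for Cox7a1. The start used was the first listed in RefSeq for each gene, and some lie inside the annotated gene. The Ndufa5 window lies wholly within its annotated gene span (24518666 to 24528013, minus strand), so its match is not upstream of that gene's outer start. Among the 69, the windows of Atp5d, Atp5g2, Atp5f1, Atp5j2, Cox7a2l, Ndufa12, Ndufa13 and Ndufs7 lie inside their genes likewise. Atp5g2 holds 1 of the NRF1 matches, and the lack of a match in Ndufs7 refers to such a window. The start used also bears on the YY1 letters: over all 75 windows listed for the members 2 held them (2.67%, against 0.606% of all windows). Each window reads 5′ to 3′ along the gene's strand, with matches to the NRF1 and GABPA letters in capitals.
Sdha: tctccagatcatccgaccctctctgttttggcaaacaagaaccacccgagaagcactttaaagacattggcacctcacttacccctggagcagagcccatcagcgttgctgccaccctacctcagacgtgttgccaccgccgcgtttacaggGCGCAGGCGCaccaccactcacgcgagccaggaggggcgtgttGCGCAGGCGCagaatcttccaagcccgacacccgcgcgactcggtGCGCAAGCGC
Sdhd: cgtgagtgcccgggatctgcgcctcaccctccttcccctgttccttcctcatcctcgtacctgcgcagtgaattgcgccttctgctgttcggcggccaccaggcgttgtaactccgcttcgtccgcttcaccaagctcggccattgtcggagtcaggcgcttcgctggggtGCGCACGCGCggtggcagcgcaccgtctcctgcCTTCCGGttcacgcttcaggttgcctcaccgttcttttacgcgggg
Ndufa5: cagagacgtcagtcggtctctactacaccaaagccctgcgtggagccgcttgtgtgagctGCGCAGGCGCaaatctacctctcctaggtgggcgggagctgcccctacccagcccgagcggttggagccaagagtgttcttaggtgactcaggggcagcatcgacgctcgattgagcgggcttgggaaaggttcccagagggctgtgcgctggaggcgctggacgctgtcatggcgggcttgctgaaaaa
Cox6a1: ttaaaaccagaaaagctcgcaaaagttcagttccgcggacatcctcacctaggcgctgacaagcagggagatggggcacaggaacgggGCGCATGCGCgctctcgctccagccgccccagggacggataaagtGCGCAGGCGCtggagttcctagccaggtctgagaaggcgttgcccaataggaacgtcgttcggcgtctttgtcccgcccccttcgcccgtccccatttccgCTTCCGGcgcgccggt
Cox7a1: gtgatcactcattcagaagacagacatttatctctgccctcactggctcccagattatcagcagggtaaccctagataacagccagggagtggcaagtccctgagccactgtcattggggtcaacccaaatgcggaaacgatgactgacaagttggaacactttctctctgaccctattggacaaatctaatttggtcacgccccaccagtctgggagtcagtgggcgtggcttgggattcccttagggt

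Sdha held 3 NRF1 matches, Cox6a1 held 2 with a GABPA match beside the start site and Sdhd held 1 of each. Ndufa5 held 1 NRF1 match, in a window inside the annotated gene, and Cox7a1 held none of the 4 motifs.

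In enterocytes the mitochondrial genes were higher than in Dmbt1-gated cells, and the nuclear members divided. All 13 mitochondrial genes were higher, with log2 differences from 0.78 (mt-Nd6) to 1.57 (mt-Nd3) and a median of 1.28, where 33.6% of all genes were higher and 30.1% lower (63.8% in either direction). Of the 79 nuclear members 35 were higher and 5 lower (median 0.25, against 0.07 over all genes), but with total UMIs in place of TMM 4 were higher and 38 lower (median −0.24). That scaling moved the median of all genes to −0.42, so the nuclear members lay above the median gene on both scales. All 13 mitochondrial genes remained higher under it, with a median of 0.80. Where each cell was thinned to 2000 UMIs, 11 nuclear members of 77 were higher and 16 lower (median −0.03), and 12 mitochondrial genes were higher. Ribosomal protein genes, whose UMIs weigh on the scaling, summed to 1299, 798, 653 and 1023 UMIs per 10000 in enterocytes and to 2981, 2566, 2209 and 2358 in Dmbt1-gated cells. Their part in the result was not tested.

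**Figure D3:**
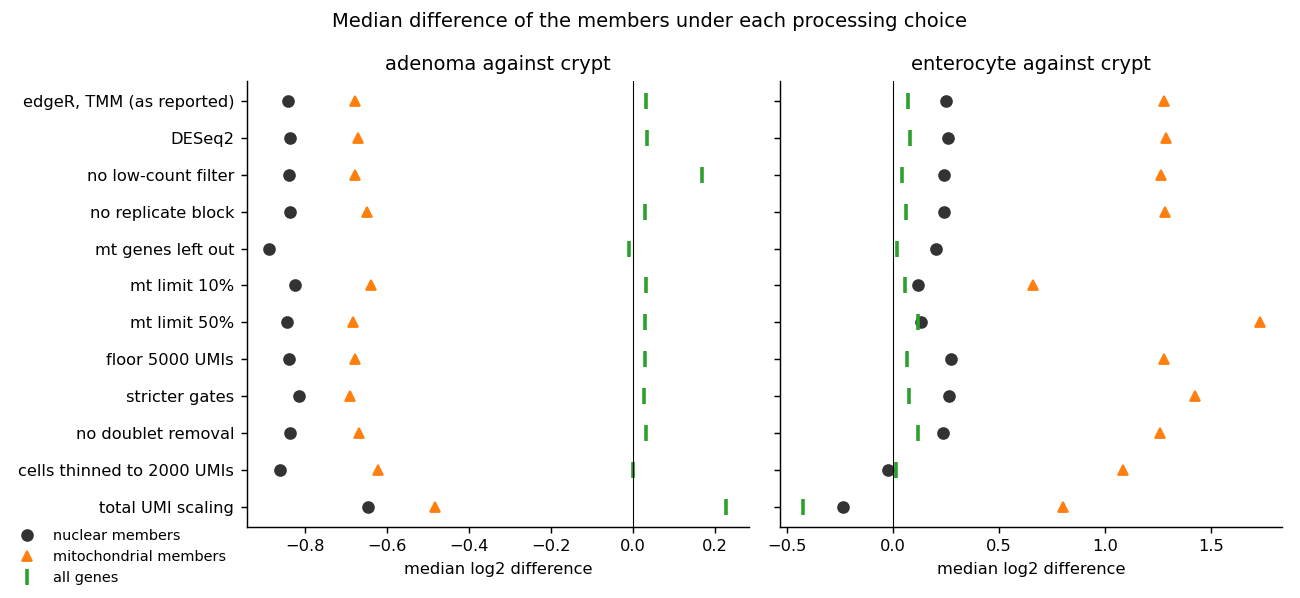
Median log2 difference (horizontal axis) of the nuclear members (circles), the mitochondrial members (triangles) and all genes (bars) under each processing choice (rows), for adenoma cells and for enterocytes against the Dmbt1-gated crypt class. The enterocyte median of the nuclear members is 0.25 under TMM, −0.03 in thinned cells and −0.24 under total UMI scaling, which flips its direction, whereas the mitochondrial median stays above 0 and the adenoma medians of the members stay below 0.

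Among nuclear members reaching 20 CPM in the higher class, the largest difference in the epithelial comparisons was that of Cox7a1 (ENSMUSG00000074218, chromosome 7, 30184144 to 30186078, plus strand, GRCm38), known as the heart and skeletal muscle form of complex IV subunit 7a. Its levels were 960.4, 581, 444 and 288 CPM in enterocytes, 86.5, 87.3, 75.3 and 56.0 CPM in Dmbt1-gated cells and 37.9, 27.6, 31.3 and 17.0 CPM in adenoma cells. Every enterocyte value exceeded every Dmbt1-gated value, and these exceeded every adenoma value. The log2 difference was 3.26 in enterocytes against Dmbt1-gated cells (SE 0.15, adjusted p = 1.11e-12) and −1.66 in adenoma against Dmbt1-gated cells (SE 0.14, adjusted p = 9.91e-09). Its broadly expressed counterpart Cox7a2 had higher levels but smaller differences, with class means of 1291 CPM in enterocytes, 1174 in Dmbt1-gated cells and 760 in adenoma cells (log2 0.62 and −0.81).

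Only 3 nuclear members exceeded the Dmbt1-gated class in CPM without overlap, namely Cox7a1, Cox4i1 and Ndufa6, where 16.7% of all genes did so. In CPM 24 nuclear members were lower without overlap, where 35.4% of all genes were. Cox4i1 stood at 2841, 2474, 2708 and 2689 CPM in enterocytes (log2 0.71, SE 0.13, adjusted p = 8.49e-05). Ndufa6, a complex I subunit of the LYR family, stood at 973, 771, 682 and 635 CPM against 523, 567, 469 and 394 CPM (log2 1.13, SE 0.11, adjusted p = 2.06e-08). Other members at the top were the X-linked Ndufa1 (1.19), Cox6a1 (0.81), Ndufv3 (0.70), Cox6c (0.70), Uqcrq (0.67) and Uqcrh (0.64), so that complexes I, III and IV were represented. The counts per complex rest on TMM, since under total UMI scaling lower nuclear members outnumbered higher ones. They are to be read against the 33.6% of all genes called higher and the 30.1% called lower. Complex IV had the largest share of higher members, 10 of 14, with 1 lower (Cox6b2, at few UMIs). Complex I had 12 higher and 2 lower of 36, the higher count being near the share over all genes. Complex II had 2 higher of 4, complex III 4 higher of 8 and complex V 7 higher and 2 lower of 17. The lower members at 20 CPM or more were Ndufc2 (−0.54), Atp5g2 (−0.40), Ndufs8 (−0.39) and Atp5g1 (−0.28). The c subunit genes thus differed in direction, as Atp5g3 was higher at 0.52. For members near the middle, the scale decided the direction. Sdhb was at 354, 367, 434 and 389 CPM in enterocytes, overlapping the Dmbt1-gated class, with a log2 difference of 0.40 that was not called (adjusted p = 0.0538), and Atp5b was at 999, 1157, 1506 and 1394 CPM (log2 0.13, not called).

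Among mitochondrial genes, 7 were higher in enterocytes without overlap of CPM (mt-Nd1, mt-Co1, mt-Atp6, mt-Co3, mt-Nd3, mt-Nd4 and mt-Cytb). For mt-Co1, enterocytes had 24699, 25719, 23162 and 19827 CPM, each above the highest Dmbt1-gated value of 12653 (log2 1.55, SE 0.12, adjusted p = 1.73e-09). For mt-Nd3, a subunit at the hinge of complex I, the levels were 1195, 1025, 1205 and 789 CPM against 553, 446, 495 and 452 CPM (log2 1.57, SE 0.13, adjusted p = 3.67e-09). Of the neighbouring lists, to be read against the 33.6% of all genes that were higher and the 30.1% that were lower, fatty acid oxidation had 11 higher and 1 lower of 13 (median 1.05) and glycolysis 14 higher of 19 (median 0.99). The TCA cycle had 6 higher and 5 lower of 16, near the shares over all genes, with Ogdh at 1.90, Cs at 1.56 and Mdh2 at 1.19 among the higher and Idh3b at −0.44 among the lower. Assembly factors had 9 higher and 16 lower of 30 and regulators 3 higher and 12 lower of 20. Ppargc1a and Esrra were higher at 3.20 and 1.29, and Tfam and Myc, a growth regulator, lower at −1.63 and −3.13. Electron carriers outside the rule had 3 higher and 2 lower of 10, with the glycerol phosphate dehydrogenase Gpd2 at 1.53 and Dhodh, of pyrimidine synthesis, at −2.37. The carrier and coupling list had 7 higher and 1 lower of 10, and stress genes 7 higher of 10.

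In secretory cells the nuclear members were lower than in Dmbt1-gated cells to about the extent seen in adenoma cells, although these 2 comparisons share the Dmbt1-gated libraries and their difference was not tested. Of 79 nuclear members 71 were lower and none higher (median −0.69), where 20.4% of all genes were lower and 23.1% higher (43.5% in either direction). CPM was lower without overlap for 54 of the 79, where 14.5% of all genes were so and 14.8% were higher. All 4 complex II members, 8 of 8 in complex III, 13 of 14 in complex IV, 16 of 17 in complex V and 30 of 36 in complex I were lower. Of the complex IV count, Cox6a2 had 0 UMIs in secretory and 13 in Dmbt1-gated cells and passed the count filter only through immune cells, so its call carries no weight. Sdhb led again, at 211, 218, 155 and 178 CPM against 386, 482, 443 and 365 CPM (log2 −1.10). It was followed by Ndufa10 (−1.04), the complex III core gene Uqcrc2 (−1.03) and Atp5o (−1.02). Ndufa1 was at 0.11 and Cox7a1 at −0.31, neither called. Mitochondrial genes were less affected, with 5 of 13 lower (median −0.25, from −0.65 for mt-Nd6 to 0.07 for mt-Co1), and none of the 13 was called in thinned cells. All 10 electron carriers, 22 of 30 assembly factors, 15 of 16 TCA cycle genes, 11 of 13 fatty acid oxidation genes, 8 of 10 carriers and 12 of 20 regulators were lower. None of these was higher except 1 carrier and 1 regulator. Glycolysis had 6 higher and 5 lower of 19, and 3 of 10 stress genes were higher.

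The secretory class is a mixture. Goblet cells (44, 68, 92 and 113 cells) had nuclear shares of 4.52%, 3.92%, 2.48% and 3.16%. Tuft cells (8, 15, 19 and 32 cells) had 4.46%, 5.37%, 3.60% and 3.73%, with mitochondrial shares of 8.01%, 7.05%, 10.9% and 6.75%. Paneth cells (5, 16, 15 and 35) had 3.04%, 4.32%, 3.43% and 3.43%, and enteroendocrine cells (11, 7, 13 and 32) had 3.07%, 4.52%, 2.13% and 2.56%. These ranges overlapped, and with so few cells in some libraries no test was made between them.

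Immune cells had fewer UMIs per cell than adenoma cells, with library medians from 3735 to 4888 against 18078 to 33986, and lower nuclear members. Of 79 nuclear members 43 were lower and 8 higher than in adenoma cells (median −0.36), where 33% of all genes were lower and 29.1% higher (62.1% in either direction), and the median of all genes was −0.08. CPM was lower without overlap for 49 nuclear members, where 32.7% of all genes were so, and higher for 1, where 16.7% were. That 1 was Cox6a2, also among the 8 called higher. It passed the count filter only through immune cells, so its call here carries no weight. The scaling changed these counts: over all 92 members tested, 9 were higher and 44 lower with TMM, 16 and 39 with DESeq2 and 3 and 67 with total UMIs, under which the median of all genes was −0.35. Atp5b was among the lowest, at 460, 560, 439 and 487 CPM against 952, 1167, 1125 and 1213 CPM (log2 −0.92). Its immune values were separated from the adenoma values without overlap, and Sdhd was lower at −0.85. The c subunit genes Atp5g1, Atp5g2 and Atp5g3 were lower at −0.78, −0.42 and −0.71. Sdhb (0.10), Uqcrh (−0.12) and Cox4i1 (−0.17) were not called under TMM. In CPM, however, Cox4i1 stood at 1157, 1218, 946 and 1203 in immune cells, each below the lowest adenoma value of 1376.

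Most of the 8 nuclear members called higher, of 79 tested, carry complex I symbols, but complex I also holds 37 of the 84 nuclear members. Over all genes 29.1% were called higher, so this is not read as a trait of complex I. These calls rest on TMM, under the limit of scaling given above. Ndufa1 stood at 538, 372, 288 and 234 CPM in immune cells and at 197, 271, 179 and 114 CPM in adenoma cells, higher in each library although the ranges overlapped (log2 1.19, SE 0.15, adjusted p = 1.55e-06). Ndufv3 was higher at 0.57, Ndufa13 at 0.43, Ndufa3 at 0.42, Ndufb7 at 0.30 and Atp5e, of complex V, at 0.38. Atp5sl was higher at 0.41. It is counted under complex V by its symbol, but its current name is Dmac2 and it is known as an assembly factor of complex I. Of the 13 mitochondrial genes mt-Nd1 was higher (0.30) and mt-Atp8 lower (−0.37), with a median of −0.00. Of the neighbouring lists, where 29.1% of all genes were higher and 33% lower, glycolysis had 2 higher and 11 lower of 19, the TCA cycle 12 lower of 16, fatty acid oxidation 1 higher and 7 lower of 13, carriers 8 lower of 10, electron carriers 6 lower of 10, assembly factors 4 higher and 10 lower of 30 and regulators 7 lower of 20. In the stress list 7 genes were higher and 1 lower, and its sum was 74.6, 40.8, 43.6 and 49.3 UMIs per 10000 in immune cells, above the 24.9 to 32.5 of adenoma cells. The part of stress in the immune values was not tested.

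Several complex IV subunits exist in tissue-type forms. Cox6a2 (ENSMUSG00000030785, chromosome 7, 128205435 to 128206387, minus strand, GRCm38), the heart and muscle form of subunit 6a, stood at 37.2, 78.4, 138 and 62.4 CPM in immune cells, from 95, 122, 141 and 70 UMIs. Adenoma cells held 2, 3, 1 and 6 UMIs. Summed over libraries this was 428 UMIs (68.4 CPM) against 12 UMIs (0.129 CPM), a ratio of 530 with an exact 95% interval of 300.4 to 1034 that covers counting error only. The gene passed the count filter only through immune cells, so this ratio is a description and not a test. Secretory cells held 0 UMIs in 599 cells, which allows a level of up to 0.264 CPM, and stromal cells 0 in 360 cells, which allows up to 1.08 CPM. The immune UMIs came from few cells, 20, 21, 14 and 13 in the libraries. Those cells had Tyrobp, a signalling adaptor of myeloid and related cells, at 47.5, 50.7, 52.0 and 43.6 UMIs per 10000, against 9.24, 15.1, 13.3 and 15.1 in the other immune cells. Cd3e of T cells was at 0, 0.124, 0 and 0 in them and at 0.807, 2.87, 1.88 and 3.12 in the others. Other markers went either way. Rac2 was at 11.6, 12.9, 8.69 and 8.38 in the cells with Cox6a2 and at 3.75, 6.31, 3.96 and 3.95 in the others. Coro1a and Laptm5 were likewise higher in each library. Lyz2, of macrophages and other myeloid cells, was at 5.54, 24.7, 0 and 13.7 in the cells with Cox6a2 and at 15.2, 31.5, 20.2 and 16.0 in the others, lower in each library, and C1qa of macrophages was lower in 3 of 4 (5.54, 17.3, 0 and 7.23 against 11.1, 16.3, 12.7 and 16.2). Mzb1, of antibody-secreting and related cells, was at 9.57, 3.1, 3.73 and 3.81 against 25.6, 11.1, 11.3 and 7.48. Yet it was detected in 90.0%, 38.1%, 57.1% and 53.8% of the cells with Cox6a2, against 53.5%, 21.0%, 18.8% and 14.5% of the others. The cells were picked by their Cox6a2 UMIs, so these marker levels are a description.

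The stroma held 2 further forms. Cox4i2, the oxygen-regulated form of subunit 4, stood at 93.0, 31.6, 139 and 223 CPM in stromal cells (109, 22, 89 and 59 UMIs) and had 45 UMIs over all 5 other classes. Ndufa4l2, a relative of Ndufa4 known to respond to hypoxia, stood at 131, 58.9, 230.0 and 454 CPM in stromal cells. These values came from 154, 41, 147 and 120 UMIs in 16, 3, 13 and 9 cells, and the last library held 25 stromal cells. The 5 other classes together had 155 UMIs. Cox6b2, known from testis, stood at 79.4, 60.3, 89.2 and 56.8 CPM in stromal cells and at 8.55, 9.67, 7.91 and 6.13 CPM in adenoma cells. Cox8b had 2 UMIs over the 5 classes and 7, 0, 0 and 1 UMIs in stromal cells. Cox7b2 and Cox8c, known from testis, had 0 UMIs in every class, which allows up to 0.0323 CPM in adenoma cells. The ubiquitous forms Cox6a1, Cox6b1 and Cox8a were called lower in adenoma than in Dmbt1-gated cells (−0.97, −0.78 and −0.64).

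**Figure D4:**
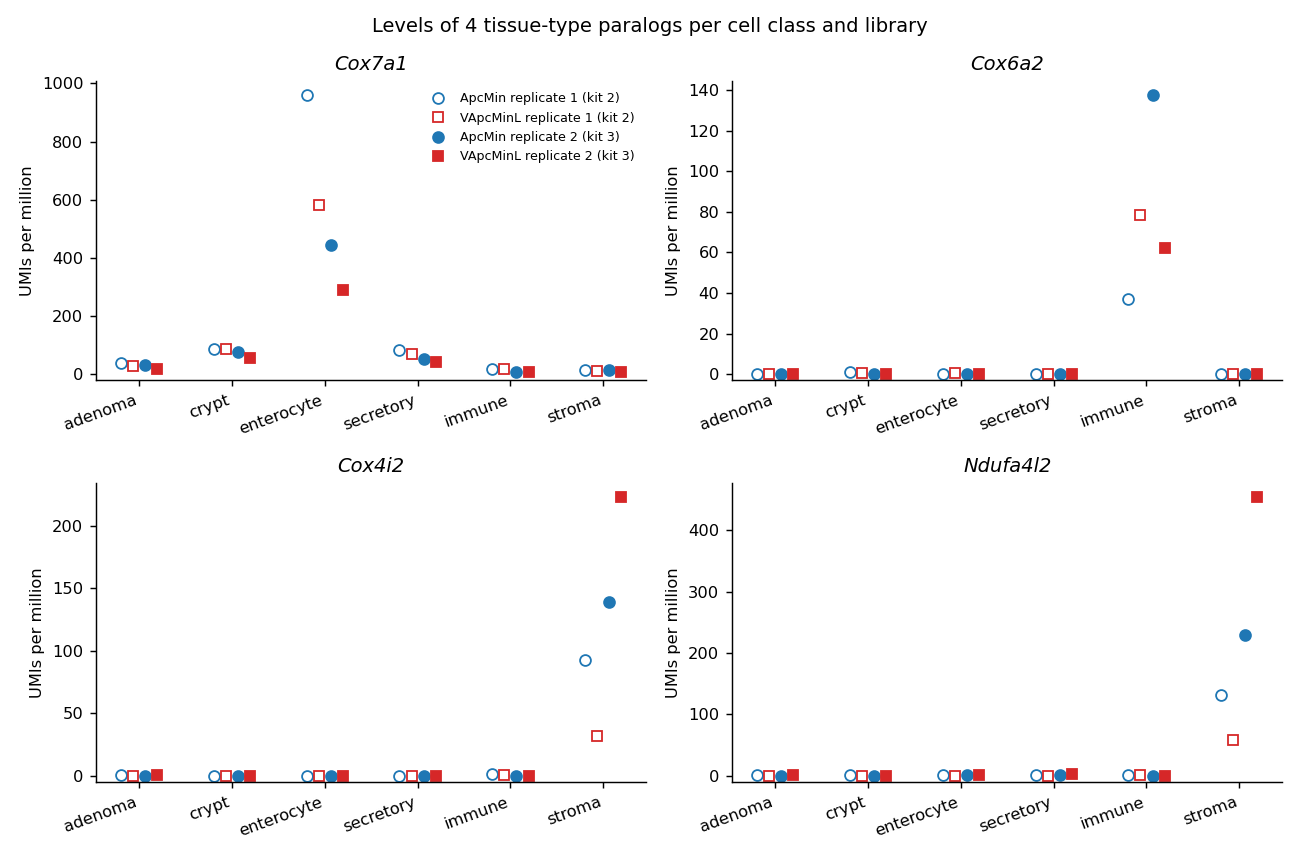
Level of Cox7a1, Cox6a2, Cox4i2 and Ndufa4l2 (UMIs scaled to a class total of 1000000, linear axis) in each cell class; each point is 1 library (blue circles ApcMin, red squares VApcMinL, open kit 2, filled kit 3) and crypt stands for the Dmbt1-gated class. Cox7a1 is highest in enterocytes (288 to 960.4), Cox6a2 in immune cells (37.2 to 138), and Cox4i2 (31.6 to 223) and Ndufa4l2 (58.9 to 454) in stromal cells.

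Since the limit on mitochondrial UMIs left out most barcodes of ApcMin replicate 2, cells were also binned by their mitochondrial share, with the limit lifted, and the nuclear share was taken of non-mitochondrial UMIs. In enterocytes with 10 to 20% mitochondrial UMIs it was 6.51%, 6.16%, 5.69% and 5.13%. In those with 20 to 50% it was lower in each library, at 3.99%, 3.99%, 2.97% and 2.66%, from 187, 345, 1477 and 424 cells. The latter cells had fewer UMIs, with medians of 4212, 4374, 6625 and 4467 against 8223, 9799, 26301 and 15662. In adenoma cells of the kit 3 libraries the nuclear share was 3.37% and 3.45% at 10 to 20% and 2.08% and 2.1% at 20 to 50% (92 and 148 cells). The kit 2 libraries had under 20 adenoma cells in the latter bin and are not given. The bins are set by the mitochondrial share itself, so only the nuclear share is a measurement here.

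**Figure D5:**
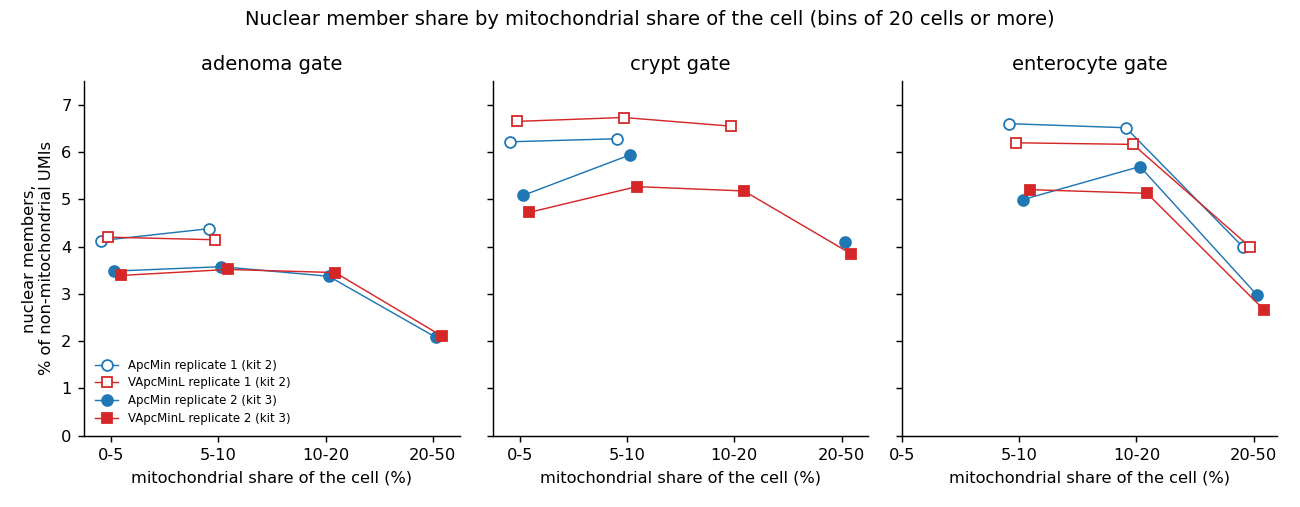
Nuclear member share (% of non-mitochondrial UMIs) by bin of mitochondrial UMI share (%) for cells of the adenoma, crypt (Dmbt1-gated) and enterocyte gates; each line is 1 library (blue circles ApcMin, red squares VApcMinL, open kit 2, filled kit 3) and bins under 20 cells are not drawn. The share falls between the bins of 10 to 20% and 20 to 50% in the enterocytes of all 4 libraries.

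Between the groups, the design asks whether loss of Lef1 in the epithelium goes with a change in these genes in adenoma cells, enterocytes or immune cells. No member was called in any of the 3 classes. In adenoma cells edgeR, with the kit as a block, called 0 of 92 members (Ndufa4l2 enters this fit and that of enterocytes, at few UMIs, and Cox6a2 does not; 1 at an unadjusted p under 0.05) and DESeq2 called 0, where 0% of 12750 genes were called. In enterocytes edgeR called 0 of 92 (1 at an unadjusted p under 0.05, DESeq2 0), where 0.00928% of all genes were called. In immune cells it called 0 of 90 (1 at an unadjusted p under 0.05, DESeq2 0), where 0.0791% were called (0.0678% higher and 0.0113% lower). With 4 libraries and the kit as a block the fit has 1 residual degree of freedom, and the kit 2 pair carries the doubt about its Lef1 label.

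The nuclear share in adenoma cells was 3.64% in both groups, with a difference of −0.00816 points (exact permutation p = 1, where the smallest that 2 against 2 libraries allow is 0.33). In enterocytes it was 4.98% in VApcMinL and 5.32% in ApcMin, a difference of −0.335 points (exact permutation p = 0.667), with −0.363 in the kit 2 pair and −0.306 in the kit 3 pair. The mitochondrial share differed by −0.313 points in adenoma cells and −0.517 points in enterocytes (exact permutation p = 1 in each), and the kit pairs went in opposite directions in both classes. The nuclear difference turned positive without ApcMin replicate 1 (0.340 points in adenoma cells and 0.138 in enterocytes) or without VApcMinL replicate 2 (0.371 and 0.110). The mitochondrial difference did so without ApcMin replicate 2 (0.991 and 0.601) and, in adenoma cells, without VApcMinL replicate 1 (0.436). Each of these values sets both kits of a group against 1 kit of the other and so carries the difference between kits, which the within-pair values do not. The median log2 difference of the nuclear members was 0.01 in adenoma cells (−0.04 in the kit 2 pair and 0.07 in the kit 3 pair), −0.06 in enterocytes (0.04 and −0.16) and −0.04 in immune cells (−0.11 and 0.08). That of the mitochondrial genes was −0.06 in adenoma cells (0.00 and −0.20), −0.05 in enterocytes (0.24 and −0.40) and −0.27 in immune cells (−0.33 and −0.14). In adenoma cells 34 of 79 nuclear and 6 of 13 mitochondrial members had the same direction in both pairs, in enterocytes 30 and 1, and in immune cells 36 of 77 and 11 of 13.

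Member differences ran from −0.68 to 0.27 in adenoma cells, from −0.95 to 0.16 in enterocytes, where the lowest was Ndufa4l2 at 0.605 and 1.30 CPM in the groups (SE 0.92) and Cox7a1 followed at −0.66, and from −0.67 to 0.43 in immune cells. In adenoma cells and in enterocytes the member under an unadjusted p of 0.05 was Cox7a1. It is named for that p, so its levels are a description and not a further test. Its adenoma levels were 37.9 and 31.3 CPM in the libraries labelled ApcMin and 27.6 and 17.0 CPM in those labelled VApcMinL, lower in both kit pairs (−0.54 and −0.78). The edgeR log2 difference was −0.68 (SE 0.20), with an unadjusted p of 0.03 and an adjusted p of 1.0. In enterocytes the levels were 960.4 and 444 CPM against 581 and 288 CPM, with overlap between the groups, and lower in both pairs (−0.60 and −0.70). The edgeR log2 difference there was −0.66 (SE 0.28), with an unadjusted p of 0.0433. In immune cells the member was mt-Nd3, at 309 and 487 CPM in ApcMin and 214 and 307 CPM in VApcMinL, lower in both pairs (−0.68 and −0.61). Its edgeR log2 difference was −0.67 (SE 0.24, adjusted p = 0.545). None of these passed the correction. The immune class is a mixture whose markers differ between libraries. In its cells without Cox6a2, Mcpt1 stood at 10.3, 106, 104 and 0.028 UMIs per 10000 and Jchain at 1177, 514, 385 and 256. The part of this make-up in the immune differences, between the groups or from adenoma cells, was not tested.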

How the data were processed

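The single-cell libraries were made from dissociated adenomas with 10x 3′ kits. The authors deposited unnormalized UMI counts per gene and barcode for each library, and per the submitters' processing notes these were made with Cell Ranger 2.1.1 and the mm10 (GRCm38) build. The headers of the kit 3 files name release 3.1.0, and the gene tables of the kits listed 27998 and 31053 genes. The 27514 shared genes were used, which left out 0.193% to 0.568% of UMIs. The members and gene lists were chosen with earlier results of these data known.

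Barcodes with at least 2000 UMIs and at most 20% mitochondrial UMIs were kept, and 49, 51, 34 and 142 likely doublets were removed with scanpy 1.11.5 (Scrublet, at an assumed rate of 0.8% per 1000 cells). Cells were gated by summed marker UMIs per 10000 UMIs, with at least 20 for epithelial, 40 for immune, 200 for enterocyte and goblet, 100 for Paneth, 10 for enteroendocrine and tuft, 10 for crypt and 2 for adenoma markers. Adenoma and crypt cells also had enterocyte markers under 100. Crypt markers stayed under 10 in adenoma cells, and adenoma markers under 2 in crypt cells. Red cell markers, used to leave cells out, stayed at or under 14.7 per 10000 in every class, and stroma markers at or under 1.68 outside the stromal class. UMIs were summed per library and class. CPM values, percent shares and log2 differences were computed here from the deposited counts.

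Sums were tested with edgeR 4.0.16 in R 4.3.3 (TMM, filterByExpr with a minimum count of 10, quasi-likelihood test). The library was the block between classes and the kit the block between groups, with Benjamini-Hochberg adjustment over all genes tested. A prior count of 2 was used only for the log2 differences within single libraries or kit pairs, not in the fit. Shares were tested with exact two-sided permutation tests, adjusted with scipy 1.17.1. The edgeR and DESeq2 fits, not the permutation tests, were also run on simulated counts. Those counts had pooled gene means, a fixed spread and no kit differences, unlike these data, so no conclusion is drawn from them. Intervals and limits from a count of 0, set at 3 counts, cover counting error only. The replicate number marks the kit version in the labels and thus pairs the groups: same-kit libraries deviated together from their group means, with r = 0.216 over 7952 genes in adenoma cells, 0.562 over 6442 in enterocytes and 0.427 over 7485 in immune cells.

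Named in each comparison were the highest and lowest mitochondrial gene, up to 10 called nuclear members per direction with the largest difference that moved alike in every library and reached 20 CPM, the leading member by CPM of each complex and the tissue-type paralogs. Of the members this rule names, 1 is not reported here. Of the latter Cox7a2l was lower in adenoma and secretory cells (log2 −0.50 and −0.51). Alternatives were DESeq2 1.42.0, no low-count filter, no block, other UMI and mitochondrial limits, thinned cells, stricter gates, no doublet removal and leaving out each library. Total UMI scaling, shares of non-mitochondrial UMIs and single kits were added after seeing the data.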

Additional observations from a re-analysis of the deposited data

Results flagged for a closer look

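The kit pairs went in opposite directions for 3 shares compared between the groups. The nuclear member share of adenoma cells was 0.0226 points higher in VApcMinL than in ApcMin in the kit 2 pair and differed by −0.0390 points in the kit 3 pair. The mitochondrial share of adenoma cells differed by 0.241 points in the kit 2 pair and by −0.868 points in the kit 3 pair. In enterocytes the mitochondrial share differed by 0.678 points and −1.71 points. With 1 library per group and kit, the difference between the pairs was not tested.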

How the results depend on the processing

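Without the replicate block, 25 members in place of 53 were called in enterocytes against Dmbt1-gated cells, 48 in place of 76 in secretory cells and 24 in place of 53 in immune against adenoma cells, and 61 in place of 87 in adenoma cells. Unpaired, the share differences of −1.96 (adenoma), −2.12 (secretory) and −1.14 (immune) points for nuclear members and 5.21 points for mitochondrial genes in enterocytes had an exact permutation p of 0.029. This is the smallest p that the unpaired test allows here. It is lower than the paired floor because the pairing by library is dropped, and is not stronger evidence. Total UMI scaling, chosen after seeing the data, reversed the enterocyte balance to 17 higher and 38 lower (55 called) and the sign of Cox6b1 (−0.0048) and Cox7b (−0.10). In the kit 2 libraries alone, also chosen after seeing the data, 34 members were called in immune cells. Cox6a2 in adenoma cells reversed to 1.71 in thinned cells, where few UMIs are left. Between the groups, the nuclear share difference changed sign in adenoma cells with a mitochondrial limit of 50% (0.0321 points) and stricter gates (0.00795), and in enterocytes with the 50% limit (0.0101). Leaving out each library gave differences from −0.387 to 0.371 (nuclear, adenoma), −0.807 to 0.138 (nuclear, enterocyte), −1.62 to 0.991 (mitochondrial, adenoma) and −1.64 to 0.601 points (mitochondrial, enterocyte), each carrying the kit difference since a group then has 1 kit. With the block these group fits have no residual degree of freedom, and without it 0 members were called. The replicate block changed no call between the groups, where the paired nuclear share differences were −0.00816 and −0.335 points. Members called without each library ranged from 84 to 88 (adenoma), 41 to 53 (enterocyte), 68 to 77 (secretory) and 36 to 46 (immune). The cause was not tested in any of these cases. Of 243 alternatives to the summary results 224 were labelled the same, 11 reversed and 4 had fewer calls by over 1.5 times. For counts of called members, the same meant within 1.5 times, and a count that stayed at 0 was labelled so too. For shares it meant the same sign and the same side of the threshold. Only the unpaired share tests between classes can pass that threshold, so for the others the side was fixed in advance and only the sign could change. The 4 that newly passed the threshold were the unpaired share tests above. Of 1621 alternatives for named genes 1453 kept direction and call, 165 lost the call and 3 reversed. The mitochondrial share of enterocytes minus Dmbt1-gated cells was 1.92 points with a mitochondrial limit of 10% and 9.43 with 50%. Groups of 2 libraries and, in immune cells, few UMIs per cell limit what could be detected.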
